A study of Danio rerio with 12 samples.

Results

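The genes described here cut, inhibit or crosslink the extracellular matrix: the matrix metalloproteases mmp2, mmp13a, mmp14a and mmp14b, the inhibitors timp2a and timp2b, the lysyl oxidases loxa, loxl1 and loxl2b, and the collagen chaperone gene serpinh1b. They were chosen by symbol, and the symbols led to 11 of the 32520 gene identifiers in the files. RNA was measured by sequencing in 6 elmo2-/- and 6 elmo2+/+ samples of whole zebrafish larvae, each a pool of 30 larvae at 120 hours post fertilisation (hpf). The elmo2-/- line carries a CRISPR/Cas9 frameshift in elmo2, a gene for a regulator of the Rac1 activator Dock180, and was made in the Tg(fli1:EGFP) endothelial reporter line, so the reporter is background to both genotypes. The frameshift brings an early stop codon into the coding sequence, and as a germline mutation it is present in every cell of the larva. Neither the labels nor the methods say whether the pools of a genotype came from separate matings, so p-values measure the spread between these pools. The comparison asks whether loss of Elmo2 goes with another level of these genes in the larva.

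The matrix between cells is rebuilt throughout larval growth, when cartilage, skin, fins and vessels expand. Metalloproteases cut collagens and other matrix proteins, TIMP proteins bind to them and block them, and lysyl oxidases join collagen and elastin chains so that fibres become stable. Serpinh1, known as Hsp47, helps collagen to fold before it leaves the endoplasmic reticulum. In mammals, Mmp14 at the cell surface activates the secreted Mmp2 precursor, with Timp2 as the bridge between them, so that Timp2 takes part in the activation and also inhibits the enzyme. Transcript levels do not measure protease activity, which depends on these later steps.

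The name table lists the genes in part under capitalised names and does not always separate the duplicated copies of zebrafish genes. Of the 10 symbols, 3 were matched as the same symbol with case ignored, and 7 under a capitalised name without the a or b ending. MMP14, TIMP2 and SERPINH1 each stand for 2 identifiers, and these are given here with the last digits of the identifier: MMP14-2235 (ENSDARG00000002235) and MMP14-8388 (ENSDARG00000008388), TIMP2-1226 (ENSDARG00000061226) and TIMP2-5261 (ENSDARG00000075261), SERPINH1-9949 (ENSDARG00000019949) and SERPINH1-5954 (ENSDARG00000075954). Which copy is a and which is b is not given by the table, so 1 of the 2 SERPINH1 genes is serpinh1b and the other is its duplicate. LOX (ENSDARG00000003259) stands for loxa, although the name does not separate loxa from loxb, and LOXL2 (ENSDARG00000044074) stands for loxl2b, since loxl2a has an identifier of its own. MMP2 (ENSDARG00000017676), mmp13a (ENSDARG00000012395) and LOXL1 (ENSDARG00000054451) had 1 identifier each. Reads shared by duplicated copies may have been divided between them when counts were estimated, which leaves fractional counts. Counts were whole numbers in all 12 samples for both MMP14 copies and TIMP2-1226, and fractional for TIMP2-5261 and both SERPINH1 copies. The split between copies is therefore uncertain for SERPINH1. Which reads were divided was not tested.

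The totals of the 12 samples lay between 20116203 and 20939679 estimated counts. Transcripts of elmo2 (ENSDARG00000063527) had 31.4 to 51.6 CPM (estimated counts scaled to a common library total, median 38.9) in elmo2-/- and 56.3 to 92.4 CPM (median 81.1) in elmo2+/+ samples, without overlap. The log2 fold change of elmo2 was -0.93 ± 0.15 (SE), with an adjusted p of 0.642 by the quasi-likelihood test of edgeR and the Benjamini-Hochberg method, so it did not pass the threshold of 0.05. Of 22259 genes tested, 0 (0%) passed this threshold in edgeR, and limma on log2(TPM + 1) called 1 of the same number, which was elmo2. DESeq2, run without the filter on low counts, called 2 of 29386 genes, elmo2 and ENSDARG00000100939. Without adjustment, 1041 genes (4.68%) had p under 0.05, and 44 (0.198%) had CPM ranges that did not overlap between the genotypes. The labels also number the libraries, 13 to 16 for elmo2-/- replicates 1 to 4, 7 and 8 for replicates 5 and 6, and 1 to 6 for elmo2+/+; what the numbers stand for is not stated.

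The 11 genes covered a wide range of levels, given here in TPM, transcript abundance scaled to a common total with transcript length taken into account. SERPINH1-9949, TIMP2-1226 and MMP2 had the highest medians over the 12 samples, 35.4, 25.6 and 25.5 TPM. The 2 MMP14 genes followed at 11.5 and 9.98 TPM. LOXL1, SERPINH1-5954, TIMP2-5261 and LOXL2 had medians of 7.86, 7.23, 5.65 and 5.29 TPM. LOX was lower at 1.62 TPM, and the collagenase gene mmp13a was the lowest at 0.393 TPM, on 6 to 20 estimated counts per sample. Some neighbours in this order did not separate: TIMP2-1226 was above MMP2 in 7 of 12 samples, LOXL1 above SERPINH1-5954 in 7, and TIMP2-5261 above LOXL2 in 6. In contrast, MMP2 was above MMP14-2235 and LOX above mmp13a in all 12 samples, with ranges that did not overlap. Within each duplicated pair the levels were unequal for TIMP2 and SERPINH1 and close for MMP14.

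**Figure D1:**
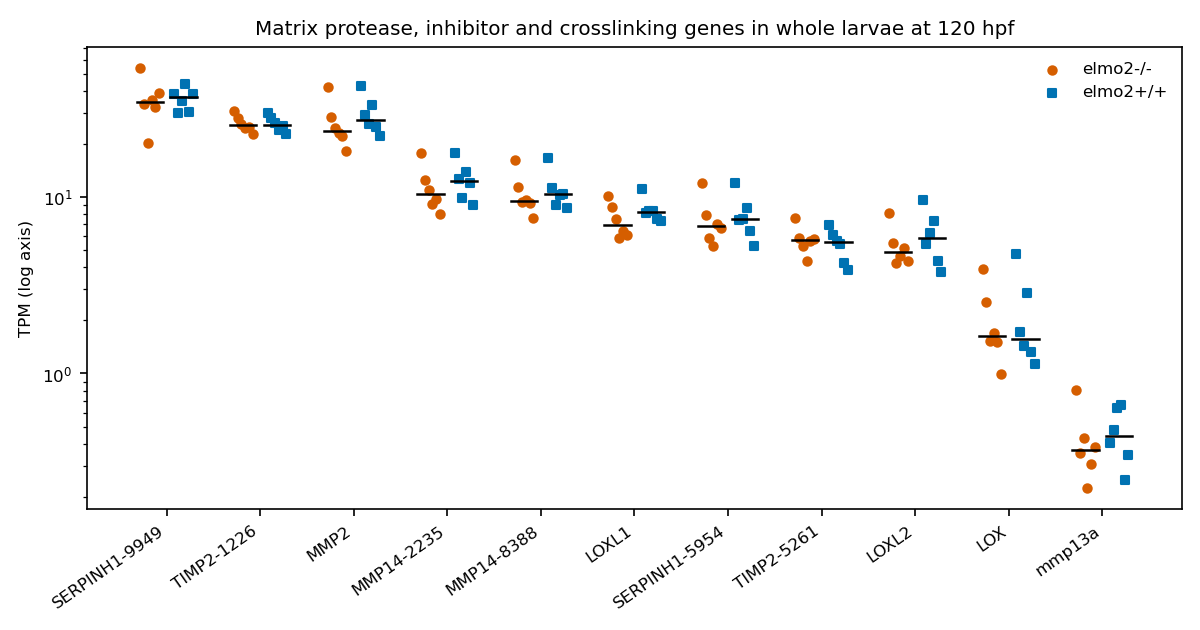
Level of each gene in TPM (log axis), with 1 point per sample, elmo2-/- in circles and elmo2+/+ in squares, and a line at the median of each genotype. The points of the genotypes overlap for all 11 genes (in CPM, 0.198% of all genes tested did not overlap). Medians over the 12 samples span 0.393 TPM for mmp13a to 35.4 TPM for SERPINH1-9949.

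Between the genotypes, no gene of the set passed the threshold. All 11 passed the filter on low counts, 0 of 11 had an adjusted p under 0.05 against 0% of all genes, and 0 of 11 had an unadjusted p under 0.05 against 4.68% of all genes in edgeR's test. DESeq2 and limma on log2(TPM + 1) gave the same counts of 0 for the set. The CPM ranges of the genotypes overlapped for all 11 genes, as for nearly all genes tested, of which 0.198% did not overlap. The fitted log2 fold change was below 0 for 8 genes and above 0 for 3, with a median of -0.095, beside 50.2% below 0 and a median of -0.00061 over all genes tested. All adjusted p-values of the set were 0.9997 by edgeR with Benjamini-Hochberg adjustment.

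Among the proteases, MMP2, a secreted gelatinase, was present at 42.2, 28.6, 24.6, 23.1, 22.3 and 18.4 TPM in elmo2-/- replicates 1 to 6, against 42.9, 29.1, 25.9, 33.1, 25.1 and 22.1 TPM in elmo2+/+ replicates 1 to 6. Replicate 1 was the highest sample in both genotypes, and replicate 4 of elmo2+/+ came next, so the spread within each genotype was wider than the gap between their medians of 23.9 and 27.5 TPM. The log2 fold change of MMP2 was -0.13 ± 0.16 (SE, n = 6 each), with a 95% confidence interval that spans 0.716 to 1.16 times the elmo2+/+ level (two-sided exact permutation p = 0.502 on mean CPM).

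MMP14 encodes the membrane-bound protease that activates Mmp2 in mammals. MMP14-2235 had 8.03 to 17.9 TPM in elmo2-/- (median 10.4) and 9.0 to 17.9 TPM in elmo2+/+ samples (median 12.4), a log2 fold change of -0.11 ± 0.17. MMP14-8388 had 7.64 to 16.2 TPM in elmo2-/- (median 9.49) and 8.64 to 16.6 TPM in elmo2+/+ samples (median 10.4), a log2 fold change of -0.023 ± 0.15. Both copies were highest in replicate 1 of each genotype, as MMP2 was. The collagenase gene mmp13a ranged within 0.224 to 0.803 TPM in elmo2-/- (median 0.369) and 0.248 to 0.667 TPM in elmo2+/+ samples (median 0.439). Its log2 fold change of -0.11 ± 0.32 had an interval of -0.79 to 0.57, so this difference could not be told apart from 0.

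The 2 inhibitor genes had the narrowest ranges of CPM in the set, although in TPM the 1.97-fold range of TIMP2-5261 was wider than the 1.91-fold range of LOXL1. TIMP2-1226 had 22.9 to 30.7 TPM in elmo2-/- (median 25.5) and 22.9 to 29.9 TPM in elmo2+/+ samples (median 25.8). Its log2 fold change was 0.055 ± 0.057, with an interval of 0.954 to 1.13 times the elmo2+/+ level, the tightest of the 11 (exact permutation p = 0.268 on mean CPM). TIMP2-5261, the copy with fewer transcripts, had 4.35 to 7.62 TPM in elmo2-/- (median 5.73) and 3.88 to 6.93 TPM in elmo2+/+ samples (median 5.56), with a log2 fold change of 0.053 ± 0.10. Over the 12 samples the CPM of TIMP2-1226 varied 1.22-fold and that of TIMP2-5261 1.43-fold, while MMP2 varied 1.98-fold and LOX 4.16-fold.

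Of the lysyl oxidases, LOX was the most variable gene of the whole set. LOX, the founding member of this family, had 3.93, 2.54, 1.54, 1.71, 1.51 and 0.987 TPM in elmo2-/- replicates 1 to 6 and 4.75, 1.71, 1.43, 2.86, 1.33 and 1.12 TPM in elmo2+/+ replicates 1 to 6. Its log2 fold change was -0.095 ± 0.36 with an interval of 0.548 to 1.6 times the elmo2+/+ level, the widest of the set. Its replicate 1 samples were the highest of both genotypes. LOXL1, a member of the family known in mammals for its part in elastic fibres, had 5.86 to 10.2 TPM in elmo2-/- (median 6.96) and 7.30 to 11.2 TPM in elmo2+/+ samples (median 8.25). It had the smallest p of the set, with a log2 fold change of -0.14 ± 0.11 and p = 0.206 (edgeR, unadjusted, with an exact permutation p = 0.238 on mean CPM). LOXL2, which in mammals acts on basement membrane collagen, had 4.22 to 8.15 TPM in elmo2-/- (median 4.88) and 3.78 to 9.63 TPM in elmo2+/+ samples (median 5.84), a log2 fold change of -0.17 ± 0.19. Of the 6 elmo2-/- samples, 1 lay above the elmo2+/+ median of LOXL2 and 2 lay above that of LOXL1.

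The collagen chaperone genes did not separate by genotype. SERPINH1-9949 had 20.3 to 53.9 TPM in elmo2-/- (median 34.7) and 29.9 to 43.5 TPM in elmo2+/+ samples (median 36.8). Its highest and lowest values both fell in elmo2-/- samples, replicates 1 and 3, and its log2 fold change was 0.0046 ± 0.14. SERPINH1-5954 had 5.27 to 12.1 TPM in elmo2-/- (median 6.82) and 5.27 to 12.03 TPM in elmo2+/+ samples (median 7.48), a log2 fold change of -0.052 ± 0.18. Both copies were highest in elmo2-/- replicate 1, while in elmo2+/+ replicate 1 SERPINH1-5954 was at its highest for that genotype and SERPINH1-9949 was near its mean. Across the 12 samples the copies had r = 0.51 and rho = 0.55 (adjusted p = 0.148 and 0.109 by permutation).

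**Figure D2:**
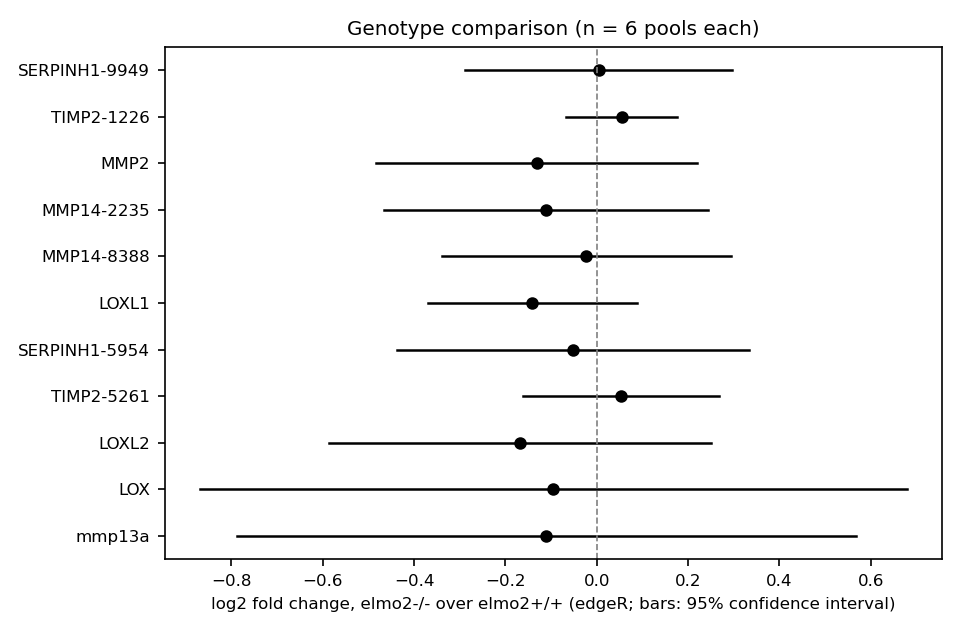
Log2 fold change of elmo2-/- over elmo2+/+ for each gene (points, edgeR) with its 95% confidence interval (bars), n = 6 pools each. Every interval crosses 0, with the narrowest for TIMP2-1226 and the widest for LOX.

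The tally of directions moved with single libraries and with the library numbers. Leaving out each library in turn changed no sign for MMP2, MMP14-2235, both TIMP2 copies, LOXL1 and LOXL2, while the other 5 genes changed sign at least once. Without elmo2+/+ replicate 1, 5 of the 11 genes lay below 0 and 6 above, with a median log2 fold change of 0.019, and without elmo2+/+ replicate 4 the counts were the same with a median of 0.0073. Without elmo2-/- replicate 1, 9 lay below 0, with a median of -0.21. When only the elmo2-/- libraries numbered 13 to 16 were set against all elmo2+/+ samples, 5 genes lay below 0 and 6 above, with a median of 0.011, and 0 of 11 had an unadjusted p under 0.05, beside 3.05% of all genes. With only libraries 7 and 8, 9 lay below 0 with a median of -0.30. In that last comparison of 2 with 6 samples, 2 of 11 genes had an unadjusted p under 0.05, beside 6.53% of all genes. They were MMP2, with a log2 fold change of -0.47, and LOXL1, with -0.33. Their adjusted p-values were 0.761 and 0.756 by edgeR with Benjamini-Hochberg adjustment. MMP2 and LOXL1 varied together over the 12 samples (r = 0.87), so they are not separate observations. Libraries 7 and 8 are elmo2-/- replicates 5 and 6, at 54.3 and 47.1 CPM of MMP2. Replicates 5 and 6 of elmo2+/+ were the lowest of that genotype too, at 59.8 and 53.6 CPM. No elmo2+/+ library carries the numbers 7, 8 or 13 to 16, so the numbers and the genotypes cannot be told apart.

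As context, 49 further symbols of matrix remodelling genes were looked up: other metalloproteases, TIMP proteins, lysyl oxidases, and the enzymes that modify and trim procollagen. Outside the 11 genes they led to 47 identifiers, of which 41 were tested. Of these, 25 had a log2 fold change below 0 and 16 above, with a median of -0.057, and 0 had an adjusted p under 0.05 in edgeR's test. At an unadjusted p under 0.05 there was 1 lower gene, beside 2.13% of all genes tested, and 0 higher genes, beside 2.55%. The gene was a TIMP4 copy (ENSDARG00000100795), an inhibitor of the same family as TIMP2, with 1.95 to 2.53 CPM in elmo2-/- (median 2.12) and 1.79 to 6.58 CPM in elmo2+/+ samples (median 3.01). Its log2 fold change was -0.73 ± 0.27 (adjusted p = 0.9997 by edgeR with Benjamini-Hochberg adjustment), and the ranges overlapped, since the lowest elmo2+/+ sample lay below all elmo2-/- samples. Of the other TIMP4 copies, ENSDARG00000111805 had a log2 fold change of -0.17 ± 0.19 (unadjusted p = 0.402 by edgeR), and ENSDARG00000102617 was not tested. The count of remodelling genes with an unadjusted p under 0.05 was 0 with libraries 13 to 16 alone, beside 3.05% of all genes. It was 4 with libraries 7 and 8 alone, beside 6.53%.

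Ratios of TPM within a sample compare an inhibitor with its protease, or 1 copy with another, without the effect of sample scaling. The 2 TIMP2 copies together were present at 0.906, 1.19, 1.27, 1.25, 1.38 and 1.56 times the level of MMP2 in elmo2-/- replicates 1 to 6, against 0.858, 1.17, 1.23, 0.886, 1.18 and 1.21 times in elmo2+/+ replicates 1 to 6. The 3 lowest ratios belonged to the samples with the highest MMP2, which were replicate 1 of both genotypes and elmo2+/+ replicate 4. MMP2 is the denominator and varied 2.33-fold in TPM, against 1.34-fold for TIMP2-1226. The ratio is therefore not an observation separate from the level of MMP2. On the log2 scale the ratio averaged 0.31 ± 0.26 in elmo2-/- and 0.11 ± 0.24 in elmo2+/+ samples (SD, n = 6 each), a difference of 0.21 (two-sided exact permutation p = 0.145, 0.390 after Benjamini-Hochberg adjustment over 5 ratios). The difference was 0.088 with elmo2-/- libraries 13 to 16 alone and 0.45 with libraries 7 and 8 alone, with adjusted exact permutation p-values of 0.649 and 0.357. With libraries 7 and 8 alone, too few assignments exist for 1 ratio by itself to reach an adjusted p under 0.05.

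The ratio of the 2 MMP14 copies to MMP2 was far steadier, at 0.808 to 0.855 in elmo2-/- (median 0.832) and 0.730 to 0.896 in elmo2+/+ samples (median 0.800). It varied 1.23-fold over the 12 samples, although MMP2 itself varied 2.33-fold in TPM. Its difference on the log2 scale was 0.064 (exact permutation p = 0.219, adjusted p = 0.390). MMP14-8388 reached 0.850 to 1.06 times MMP14-2235 in elmo2-/- and 0.744 to 0.960 times in elmo2+/+ samples, so the 2 copies stood at similar levels in every pool. TIMP2-5261 stood at 0.177 to 0.254 times TIMP2-1226 in elmo2-/- and at 0.166 to 0.232 times in elmo2+/+ samples. LOXL2 stood at 2.07 to 4.41 times LOX in elmo2-/- and at 2.02 to 4.38 times in elmo2+/+ samples. The differences in log2 of these 3 ratios were 0.090, 0.10 and -0.11, with exact permutation p-values of 0.234, 0.407 and 0.617, adjusted to 0.390, 0.509 and 0.617. With CPM in place of TPM, the difference of the TIMP2 copies was 0.0039. Without elmo2+/+ replicate 4, that of the MMP14 copies was 0.041, and that of LOXL2 over LOX was -0.0047 without elmo2+/+ replicate 3 and -0.24 without elmo2-/- replicate 6.

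**Figure D3:**
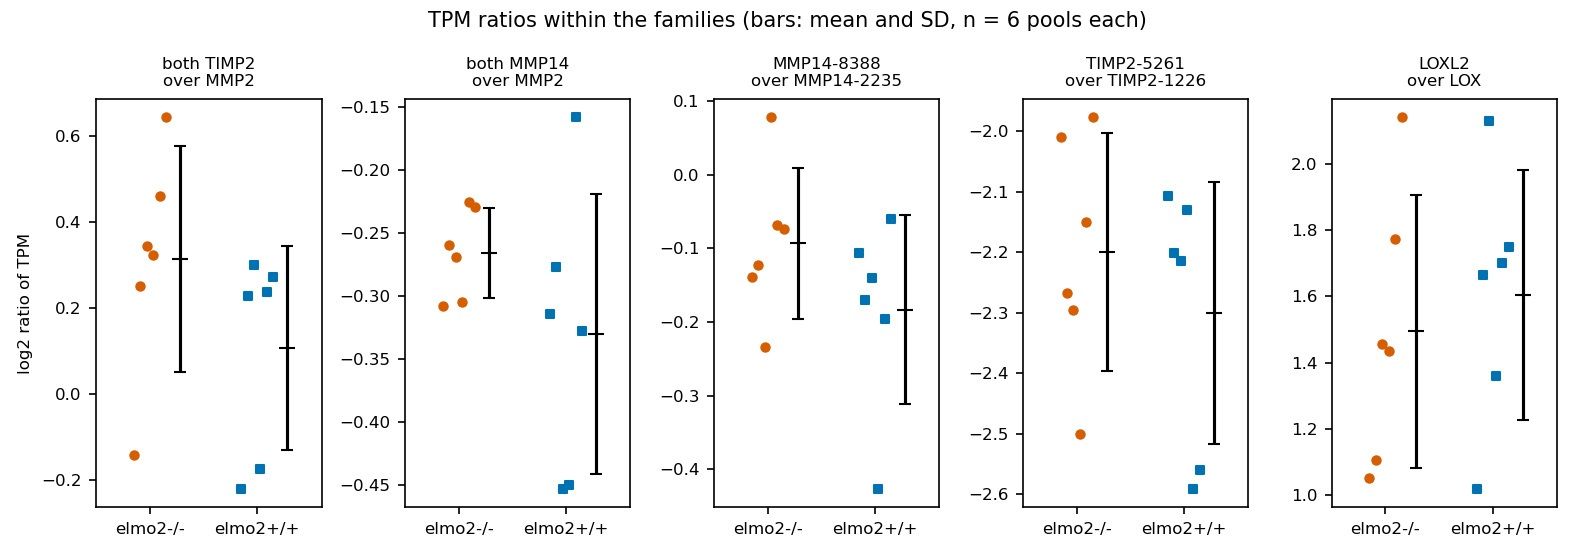
Log2 of 5 TPM ratios in each sample (points, elmo2-/- left of elmo2+/+), with the mean and SD of each genotype (bars, n = 6). The genotypes overlap in every panel, and the ratio of both MMP14 copies to MMP2 has the smallest spread, 1.23-fold over the 12 samples.

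The larger pattern in these genes was shared variation between pools of both genotypes. Replicate 1 of elmo2-/- was above the mean of the 12 samples for 11 of 11 genes, and elmo2+/+ replicates 1 and 4 for 10 each. Replicates 4, 5 and 6 of elmo2-/- were above it for 1, 1 and 2 genes, and elmo2+/+ replicates 5 and 6 for 1 each. The median deviation of the 11 genes from their means was 0.47 on the log2 scale in elmo2-/- replicate 1 and 0.47 in elmo2+/+ replicate 1, while it was -0.22 in elmo2-/- replicate 6 and -0.29 in elmo2+/+ replicate 6. Thus both genotypes held pools with high and pools with low levels.

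**Figure D4:**
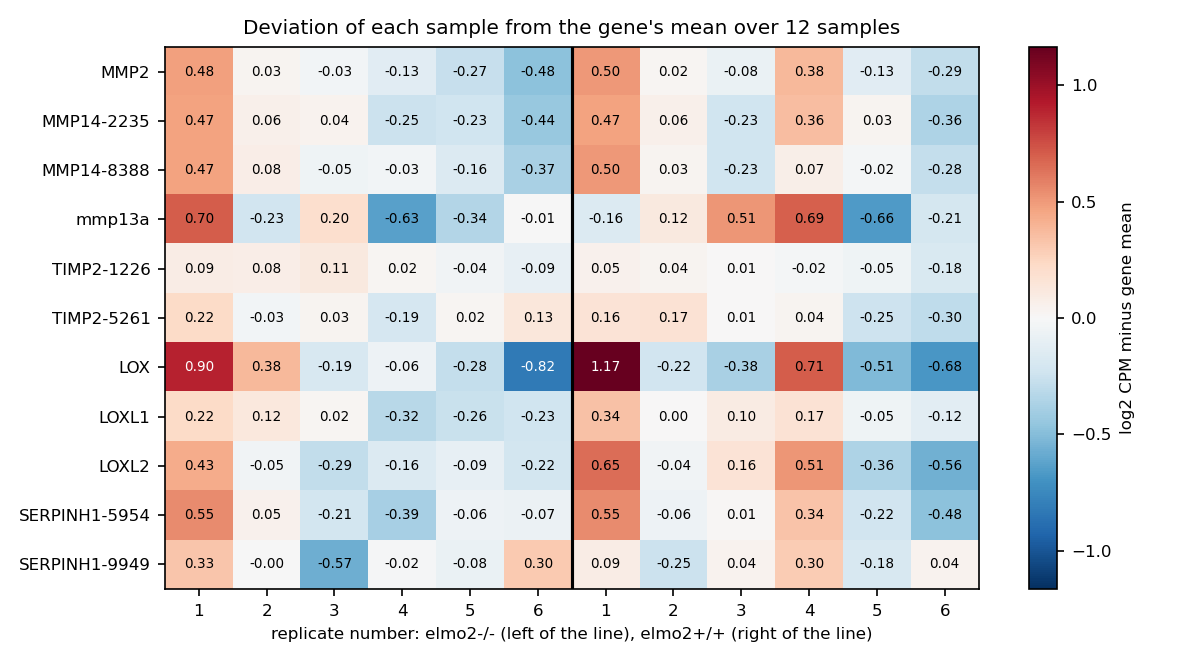
Deviation of log2 CPM from the mean of each gene over 12 samples, with genes in rows, and elmo2-/- replicates left and elmo2+/+ replicates right of the line. The columns of elmo2-/- replicate 1 and elmo2+/+ replicates 1 and 4 are mostly above 0, while SERPINH1-9949 and mmp13a depart from the other rows.

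Over the 55 pairs of the 11 genes, 54 had a positive Pearson's r of log2 CPM across the 12 samples. After Benjamini-Hochberg adjustment over the 55 pairs, 23 had a permutation p of r under 0.05 and 27 had one of Spearman's rho under 0.05. Within genotypes, with each value taken as the deviation from its genotype mean, 27 pairs passed. With 2 samples left out of each pair, 9 pairs passed, at 10 samples in place of 12. The samples left out were those farthest from the median of the first gene of the pair, which was MMP2 in all its pairs. Leaving them out narrows the range of that gene, which can by itself lower r.

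MMP2 and MMP14-2235 had the closest relation in the set, with r = 0.96 and rho = 0.98 (permutation p = 1e-05 for both, the smallest that 100000 resamples can give, adjusted p = 0.000137 and 0.00055). It was 0.98 in elmo2-/- and 0.94 in elmo2+/+ samples and 0.92 without the 2 farthest samples. MMP2 and MMP14-8388 had r = 0.92 and rho = 0.92 (permutation p = 1e-05 and 4e-05, adjusted p = 0.000137 and 0.0011), and r = 0.82 without those samples. MMP2 and the 2 MMP14 copies thus varied together in both genotypes, and their TPM ratio varied 1.23-fold over the 12 samples. Other genes followed MMP2 too, at a lower cut: 10.9% of all genes tested had r of 0.74 or more with it, as had 6 of the other 10 genes of the set. The share of all genes at r of 0.92 or more was not counted.

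LOX followed MMP2 as closely, with r = 0.95 and rho = 0.89 (permutation p = 1e-05 and 0.00031, adjusted p = 0.000137 and 0.00213), and r = 0.88 without the 2 farthest samples. The amplitude differed, since LOX varied 4.16-fold in CPM over the pools and MMP2 1.98-fold. LOXL1 had r = 0.87 and rho = 0.91 with MMP2 (permutation p = 0.00038 and 1e-04, adjusted p = 0.00261 and 0.00121), and r = 0.76 without 2 samples. LOXL2 had r = 0.86 and rho = 0.79 (permutation p = 0.00084 and 0.00343, adjusted p = 0.00385 and 0.0157). SERPINH1-5954 had r = 0.83 and rho = 0.79 (permutation p = 0.00123 and 0.00326, adjusted p = 0.00499 and 0.0157). For LOXL2 and SERPINH1-5954, r was 0.73 and 0.62 without the 2 farthest samples, with adjusted permutation p-values of 0.101 and 0.159, so these 2 calls no longer held at 10 samples.

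For the remaining genes the relation to MMP2 did not pass on r of log2 CPM. TIMP2-1226 had r = 0.59 and rho = 0.73 with MMP2 (permutation p = 0.0425 and 0.00846, adjusted p = 0.0836 and 0.0267), with little amplitude. This relation passed within genotypes (r = 0.73, adjusted permutation p = 0.0247) and on log2(TPM + 1) (r = 0.81, adjusted permutation p = 0.00344). TIMP2-5261 had r = 0.48 and rho = 0.55 with MMP2 (permutation p = 0.111 and 0.0659, adjusted p = 0.156 and 0.109), and r = 0.66 on log2(TPM + 1) (adjusted permutation p = 0.0313). On log2 CPM this inhibitor copy had r = 0.76 with SERPINH1-5954 and r = 0.67 with LOXL2 (adjusted permutation p = 0.0132 and 0.0402). Without the 2 samples farthest from its median, these were 0.67 and 0.43. Their adjusted permutation p-values were then 0.119 and 0.414, so neither call held at 10 samples. The collagenase gene mmp13a had r = 0.51 and rho = 0.48 (permutation p = 0.0926 and 0.117, adjusted p = 0.150 and 0.165). SERPINH1-9949 had r = 0.25 and rho = 0.21 (permutation p = 0.447 and 0.514, adjusted p = 0.492 and 0.554), and -0.050 without 2 samples. The lowest r of the 55 pairs, -0.30, was that of SERPINH1-9949 with TIMP2-1226.

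**Figure D5:**
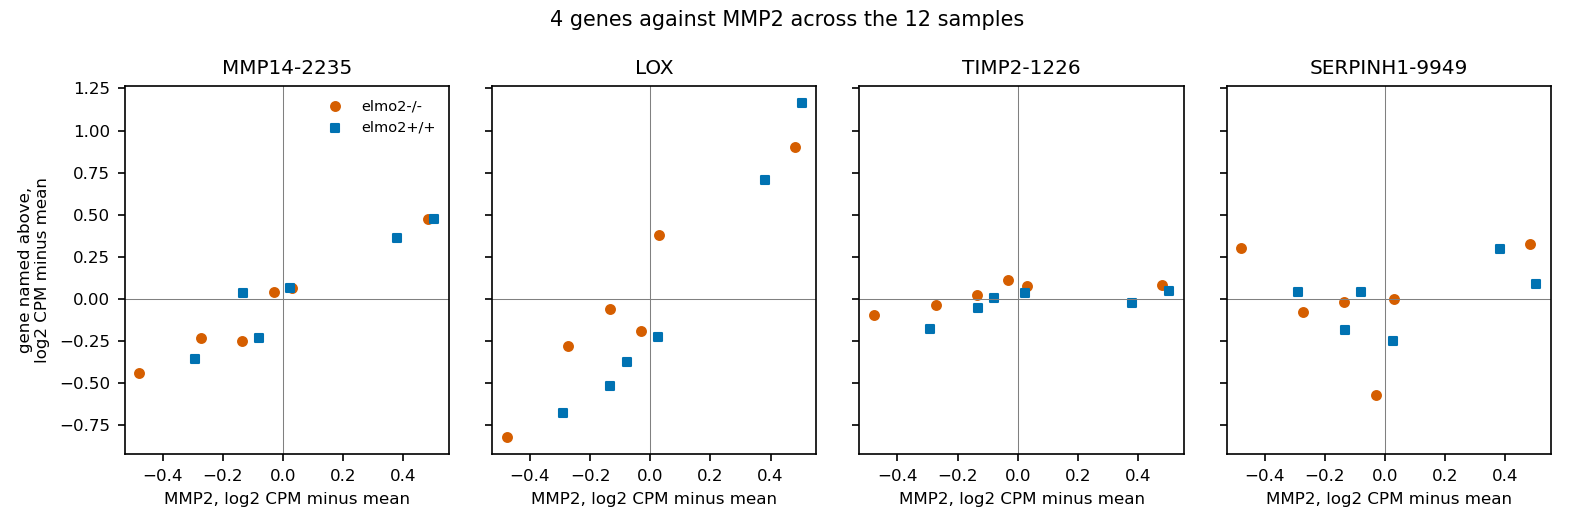
Deviation of log2 CPM from the gene mean for MMP14-2235, LOX, TIMP2-1226 and SERPINH1-9949 (vertical axes) against that of MMP2 (horizontal axes), with 1 point per sample, elmo2-/- in circles and elmo2+/+ in squares. MMP14-2235 (r = 0.96) and LOX (r = 0.95) follow MMP2 in both genotypes, TIMP2-1226 (r = 0.59) stays near its mean, and SERPINH1-9949 (r = 0.25) does not follow it.

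A group of 7 genes, named after their values were seen and so given as a description, held MMP2, both MMP14 copies, LOX, LOXL1, LOXL2 and SERPINH1-5954. Their 21 pairs had r of 0.74 to 0.96, and of 0.35 to 0.92 without the 2 farthest samples. Such values were not rare in these libraries: 2437 of 22258 other genes tested (10.9%) had r of 0.74 or more with MMP2, where the median was -0.0070. The first principal component of the 12 samples held 36.7% of the variance of all genes, and the 7 genes had r of 0.79 to 0.94 with it, as had 2284 genes (10.3%) at 0.79 or more. Outside the 7, r with that component was 0.68 for TIMP2-1226, 0.63 for TIMP2-5261, 0.52 for mmp13a and 0.27 for SERPINH1-9949.

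Marker lists were read beside this pattern, for the cells that make matrix and for others present in a whole larva. In bulk RNA of whole larvae, fewer cells of a type and less RNA per cell cannot be told apart. The summed level of 11 genes of matrix-making mesenchyme, such as the collagen genes col1a1a and COL1A2, decorin (DCN) and the growth factor receptor PDGFRA, was 4287 to 5636 CPM in elmo2-/- (median 4528) and 4236 to 5997 CPM in elmo2+/+ samples (median 4832). It moved with MMP2 across the pools, with r = 0.92 and rho = 0.90 (permutation p = 8e-05 and 0.00012, adjusted over 7 relations 0.00056 and 0.00084). It had r = 0.92 within genotypes, and r = 0.89 without the 2 samples farthest from the median of the summed level. Of the 11 mesenchyme genes, 8 had r of 0.74 or more with MMP2, beside 10.9% of all genes. This was not particular to the list: 3 of 4 liver, 4 of 10 cartilage and bone, 3 of 8 macrophage and neutrophil and 2 of 5 epidermis genes reached it. Of the 11, 10 had a log2 fold change below 0, beside 50.2% of all genes. Genes of a list were measured in the same pools and can vary together, so their directions are not separate observations. The directions of the marker lists were not counted again with libraries left out. At an unadjusted p under 0.05 between the genotypes in edgeR's test there were 0, beside 4.68% of all genes, and 0 were at 0 in every sample. The part of mesenchyme cell number in the shared variation was not tested.

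The list of liver genes also moved with MMP2, with r = 0.81 and rho = 0.85 (permutation p = 0.00218 and 0.00076, adjusted p = 0.00763 and 0.00266). Its sum over 4 genes was 1377 to 6428 CPM in elmo2-/- (median 4013) and 1645 to 8287 CPM in elmo2+/+ samples (median 3838). Cartilage and bone genes had r = 0.72 and rho = 0.51 (permutation p = 0.00845 and 0.0946, adjusted p = 0.0197 and 0.161), and r = 0.41 without the 2 samples farthest from the median of their sum. Their sum was 1351 to 1634 CPM in elmo2-/- (median 1456) and 1489 to 1802 CPM in elmo2+/+ samples (median 1521). Of 10 tested genes of this list, 10 lay below 0, beside 50.2% of all genes, with a median log2 fold change of -0.24. Of these, 0 had an unadjusted p under 0.05 in edgeR's test, beside 4.68% of all genes. The limits given for the directions of the mesenchyme genes hold for this list too. Macrophage and neutrophil genes, at 46.6 to 83.8 CPM in elmo2-/- and 55.8 to 80.5 CPM in elmo2+/+ samples, had r = 0.65 and rho = 0.73 (permutation p = 0.0228 and 0.00841, adjusted p = 0.0399 and 0.0196). Of 8 tested genes of this list, 3 lay below 0 and 5 above, and 2 had an unadjusted p under 0.05 in edgeR's test, beside 4.68% of all genes. Of the 4 liver genes 1 lay below 0 and 3 above, with 0 under that p.

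Epidermis genes had r = 0.12 and rho = -0.042 with MMP2 (permutation p = 0.704 and 0.905, adjusted p = 0.704 and 0.905), at 12239 to 13389 CPM in elmo2-/- and 9735 to 15666 CPM in elmo2+/+ samples. All 5 lay above 0, where 50.2% of all genes lay below 0. At an unadjusted p under 0.05 in edgeR's test there were 0 of the 5, beside 4.68% of all genes. The scaling factor of the libraries had r = 0.53 and rho = 0.48 with MMP2 (permutation p = 0.0744 and 0.115, adjusted p = 0.0938 and 0.161) and r = -0.084 without the 2 samples farthest from the median of that factor. The total estimated count had r = 0.53 and rho = 0.40 (permutation p = 0.0804 and 0.201, adjusted p = 0.0938 and 0.235) and r = 0.092 without the 2 samples farthest from the median of the totals. Their part in the shared variation was not tested.

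For each gene, the 3 tested genes with the most similar log2 CPM over the 12 samples were looked up, with no p, since they were picked as the highest. For MMP2 these were cd248a (r = 0.99), whose mammalian counterpart marks fibroblasts and pericytes, the collagen gene col6a4a (0.98) and HSPB7 (0.98). For MMP14-2235 they were again cd248a (0.98), with the laminin chain gene lamc1 (0.97) and SLC44A2 (0.97). For MMP14-8388 they were PRRX1 (0.98), a transcription factor gene of limb and head mesenchyme, vwf (0.97) and si:dkey-120c6.5 (0.96). Of these 9 places, cd248a took 2, and MMP2 and MMP14-2235 shared it.

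For LOX the neighbours were rin3 (0.97), USP53 (0.97) and MINPP1 (0.97). For LOXL1 they were ENSDARG00000101592 (0.96), the cardiac myosin gene MYH6 (0.95) and SLC4A2 (0.95), and for LOXL2 the muscle gene MYOZ2 (0.96), HSDL2 (0.96) and ABCC4 (0.96). SERPINH1-5954 was most like scamp4 (0.97), CORO1C (0.97) and si:dkey-199f5.8 (0.96). SERPINH1-9949 had E2F1 (0.90) and DSCC1 (0.89), both genes of the DNA replication cycle, and cd226 (0.87), and so shared none of its 3 with its duplicate. TIMP2-1226 was most like VAMP8 (0.93), chst6 (0.92) and PTPN6 (0.92), and TIMP2-5261 most like dnajc5gb (0.91), map2k2b (0.91) and LGALSL (0.91). The neighbours of mmp13a, IARS2 (0.88), ZNF521 (0.87) and epha2a (0.87), rest on its few counts.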

How the data were processed

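Total RNA of pools of whole larvae was extracted with the RNeasy kit and sequenced on the BGISEQ-500 platform. The submitters' processing notes name Trim Galore 0.6.4, kallisto 0.4.6 and GRCz11; the annotation, the use of strand and the step from transcripts to genes are not given in the sources used here. The authors deposited estimated counts per gene, which need not be whole and are not scaled between samples. The authors also deposited TPM values, which account for transcript length and are scaled to 1 total per sample. Such values cannot separate more cells from more RNA per cell.

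Groups were taken from the sample titles. Estimated counts were rounded and fitted on all 12 samples, genotype as the only term, with edgeR 4.0.16 in R 4.3.3 (filterByExpr with a minimum count of 10, TMM, quasi-likelihood test). Benjamini-Hochberg adjustment covered the 22259 genes tested, and the SE was the absolute log2 fold change over the square root of F. The common biological coefficient of variation was 0.171. Log2 CPM used a prior count of 2. Exact permutation tests were two-sided and used all 924 assignments of 6 of 12 samples. Where libraries were left out, they used all assignments of the samples kept. They compared mean CPM for single genes and mean log2 ratios for ratios. Correlation tests used 100000 resamples, which shuffled samples regardless of replicate number. Named besides the 11 genes were elmo2 and further remodelling genes with an unadjusted p under 0.05, with other identifiers of the same name. The 3 genes most like each of the 11 are named as well. Marker genes are named as examples of their lists, and a gene called only by another tool is named where it is counted. DESeq2 1.42.0, limma 3.58.1, other scalings and filters, a replicate block and left-out libraries were tried. The genes, the lists and the tests were chosen with earlier results of these data known. Coordinates and sequences are not used here. The edgeR fit was tested on simulated counts with set changes larger than those of the 11 genes. That test does not bear on changes as small as theirs, or on the correlations.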

Additional observations from a re-analysis of the deposited data

Results flagged for a closer look

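Among 32 groups of 6 values examined for a single sample far from the others, 2 held one, and chance gives about 1 in 20. LOXL2 was at 22.3 CPM in elmo2-/- replicate 1, where the nearest of the other elmo2-/- samples had 16.02 CPM, a gap of 0.715 of the whole range of the group. The same pool was above the mean for all 11 genes. The TPM ratio of MMP14-8388 over MMP14-2235 was 0.744 in elmo2+/+ replicate 4, where the nearest elmo2+/+ sample had 0.873. The gap was 0.629 of the range on the log2 scale, on which ratios were examined, while single genes were examined in CPM.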

How the results depend on the processing

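No setting called any of the 11 genes at an adjusted p under 0.05. Over all genes, edgeR called 0, DESeq2 2 (elmo2 and ENSDARG00000100939), and limma on log2(TPM + 1) and on log2(TPM + 0.1) 1 each (elmo2). Remodelling genes with an unadjusted p under 0.05 numbered 1 in the reported fit (all genes 4.68%), 2 with DESeq2 (3.62%) and RLE size factors (4.72%), 3 with a filter of 1 count (4.53%), with limma at pseudocounts of 1 (4.5%) and 0.1 (4.48%) and without replicate 1 of both genotypes (5.61%; chosen after seeing the data), 0 with elmo2-/- libraries 13 to 16 (3.05%), 4 with libraries 7 and 8 (6.53%), and 1 to 3 with 1 replicate left out (3.14% to 7.25%). A filter of 1 CPM in 6 samples removed mmp13a.

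SERPINH1-9949, at 0.0046, was -0.0047 with library size alone, -0.046 and -0.049 with limma on log2(TPM + 1) and log2(TPM + 0.1), -0.049 with libraries 13 to 16 and -0.050 without replicate 1 of both genotypes. With libraries 13 to 16, MMP2 was 0.011, MMP14-2235 0.020, MMP14-8388 0.098 and LOX 0.14; with libraries 7 and 8, TIMP2-1226 was -0.040 and the log2 ratio of LOXL2 over LOX 0.35. With 1 replicate left out, the log2 fold change spanned -0.34 to 0.23 for LOX, -0.34 to 0.057 for mmp13a, -0.14 to 0.093 for MMP14-8388, -0.19 to 0.069 for SERPINH1-5954 and -0.065 to 0.098 for SERPINH1-9949. These 5 genes changed sign without 1 of elmo2-/- replicates 1, 4, 5 and 6 or elmo2+/+ replicates 1, 2, 4 and 5. Without a sign change, it spanned -0.26 to -0.034 for MMP2, -0.24 to -0.020 for MMP14-2235, -0.29 to -0.034 for LOXL2, -0.21 to -0.083 for LOXL1, 0.026 to 0.075 for TIMP2-1226 and 0.0029 to 0.093 for TIMP2-5261; elmo2-/- replicate 1 and elmo2+/+ replicate 1 gave the ends for the first 4. The cause was not tested.

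Between the 11 genes, 23 pairs passed on log2 CPM, 39 on log2(TPM + 1) and 9 without the 2 farthest samples, where MMP2 with SERPINH1-9949 was -0.050. Samples with the same replicate number shared no labelled source. Their deviations over all genes tested correlated at -0.25 to 0.62, above 0.1 in 2 of 6 numbers, so the numbers were not taken as pairs. Single genes of the set could lie closer. MMP2 had 91.6, 67.0 and 64.3 CPM in elmo2-/- replicates 1 to 3, and 93.1, 66.8 and 62.2 CPM in those of elmo2+/+. In replicate 4 it had 59.8 CPM in elmo2-/- and 85.5 CPM in elmo2+/+. With a replicate block 0 genes were called, 4 remodelling genes and 6.49% of all genes had an unadjusted p under 0.05, and SERPINH1-9949 was -0.011. Of the 11 genes, 0 had an unadjusted p under 0.05 with the block. LOXL1 had 0.0791 and MMP2 0.109 by edgeR, beside 0.206 and 0.434 in the reported fit. The ratio of both TIMP2 copies to MMP2 was higher in elmo2-/- in 6 of 6 pairs of numbers by 0.21 (exact sign-flip p = 0.0312, the smallest 6 pairs allow, adjusted p = 0.156).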

Other observations

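The estimated count per TPM of a gene, taken relative to the median of its sample, stays nearly fixed when reads fall on the same transcripts in every pool. It varied by a coefficient of variation of 0.332% for MMP2 and 0.333% for TIMP2-1226, but by 6.29% for SERPINH1-9949 and 6.65% for TIMP2-5261, beside a median of 0.592% over 18671 genes. For SERPINH1-9949 the highest sample was 1.19 times the lowest, and its level varied 2.65-fold in TPM and 1.87-fold in CPM. As many as 2175 genes varied at least as much as SERPINH1-9949 in this measure, so it is not particular to it. Transcript-level values were not used here, and which transcripts differ was not tested.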
